A study of Mus musculus with 6 samples.

Results

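Aminoacyl-tRNA synthetases attach each amino acid to its own transfer RNA, the step that sets the genetic code and supplies the ribosome with charged tRNA. The genes described here were chosen by name: 36 listed symbols, of which 20 encode cytosolic enzymes or subunits and 16 encode mitochondrial enzymes. All 36 were found among the 52550 genes in the files, each on a single row, and all 36 passed the filter on low values that left 20136 genes for testing. In the knockout libraries 14 of the 20 cytosolic genes were higher and 0 were lower, while 2 of the 16 mitochondrial genes were higher and 0 were lower. Of all tested genes, 10.3% were higher and 13.0% lower, and 26.9% of those in the level range of the cytosolic genes were higher. The mitochondrial count of higher genes is near the share of all tested genes and is no result about the class.

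The RNA came from mouse bone marrow cells labelled as primary hematopoietic stem cells. The 3 wild-type (WT) libraries carry the genotype Ppp2caf/f, meaning floxed alleles of Ppp2ca with no Cre named, and the 3 knockout (KO) libraries carry VAV1crePpp2caf/f, the same alleles with a Cre driven by Vav1, a gene active throughout blood cells. Its target, Ppp2ca, encodes a catalytic subunit of the serine/threonine phosphatase PP2A. The age and sex of the animals, the sorting markers, and whether each library is a separate animal are not given in the sources used here, so every p-value rests on the variation among these 6 samples, which may be technical.

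Ppp2ca stood at 32909, 33451 and 33169 normalised reads in WT and at 23728, 22419 and 24046 in KO, 70.5% of WT on average, counted over the whole gene and not over the deleted exons alone. The libraries held 37951985 to 58692037 reads over genes. A normalised read is a read divided by the size factor of its library, not by gene length. Of 10 stem cell markers 9 fell, and the summed level of the list was 87285 to 98875 in WT and 30971 to 48978 in KO. Most of each of these sums was Cd34 and Kit. Of 9 measured granulocyte-monocyte progenitor markers 8 rose, with sums of 1273220 to 1507456 in WT and 1894314 to 2106378 in KO, most of each being Mpo. All 10 erythroid and megakaryocyte markers fell, with sums of 30969.5 to 40318 in WT and 8815 to 9662 in KO. Of 10 lymphoid markers 8 were tested, of which 5 fell and 1 rose, with Ebf1 at 0 in every library. Their sums were 62837 to 87003 in WT and 44570 to 48929 in KO. Most of the KO sum was Nkg7, the 1 that rose, from 34383, 34751 and 33344 to 41638, 43814 and 42521 normalised reads. Of 10 macrophage and dendritic markers 5 fell (12860 to 18741 and 8291 to 8581). Rose and fell mean called by the test described below, which called 10.3% of all tested genes higher in KO and 13.0% lower. In bulk RNA, fewer cells of a type and less RNA per cell cannot be told apart, and the part of this difference in cell markers in the results below was not tested.

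The enzymes fall into class I and class II by the fold of the catalytic domain. Several cytosolic ones sit together in a multi-synthetase complex, and a separate set, encoded in the nucleus, is imported into mitochondria to charge the tRNAs of the mitochondrial genome. Gars and Kars encode both the cytosolic and the mitochondrial form of their enzyme, Eprs encodes a single protein that charges both glutamate and proline, and mitochondria charge glutamine indirectly, without a glutaminyl enzyme of their own. Uncharged tRNA activates the kinase GCN2, which leads to translation of the transcription factor ATF4, and many cytosolic synthetase genes are known ATF4 targets in other cells.

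In the cytosolic class, called changes ran in 1 direction. Fold changes were computed on log2(normalised reads + 1) with limma and Benjamini-Hochberg adjustment over all tested genes, and a gene was called at an adjusted p below 0.05. The 14 called cytosolic genes stand against 10.3% of all tested genes called higher in KO, 13.0% called lower and 23.3% called in either direction. Called increases were more frequent at high expression: among the 3785 tested genes within the level range of the cytosolic members, 26.9% were called higher. These genes share the range but were not matched in level: their median was 5400 normalised reads, beside 10077 for the cytosolic members. All 20 cytosolic log2 fold changes were above 0, from 0.15 in Dars, which turned to −0.10 with quantile normalization, to 0.85 in Aars. Their median was 0.45 beside −0.02 for all tested genes and 0.15 for those in the same level range. In 18 of the 20 every KO value lay above every WT value, and Dars and Iars were the exceptions. Among all tested genes 19.1% showed this, and in the same level range 1537 of the 3785 did. The count of 14 became 9 with total read scaling or quantile normalization, 6 without the intensity trend of the variance model and 7 without KO replicate 3.

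**Figure D1:**
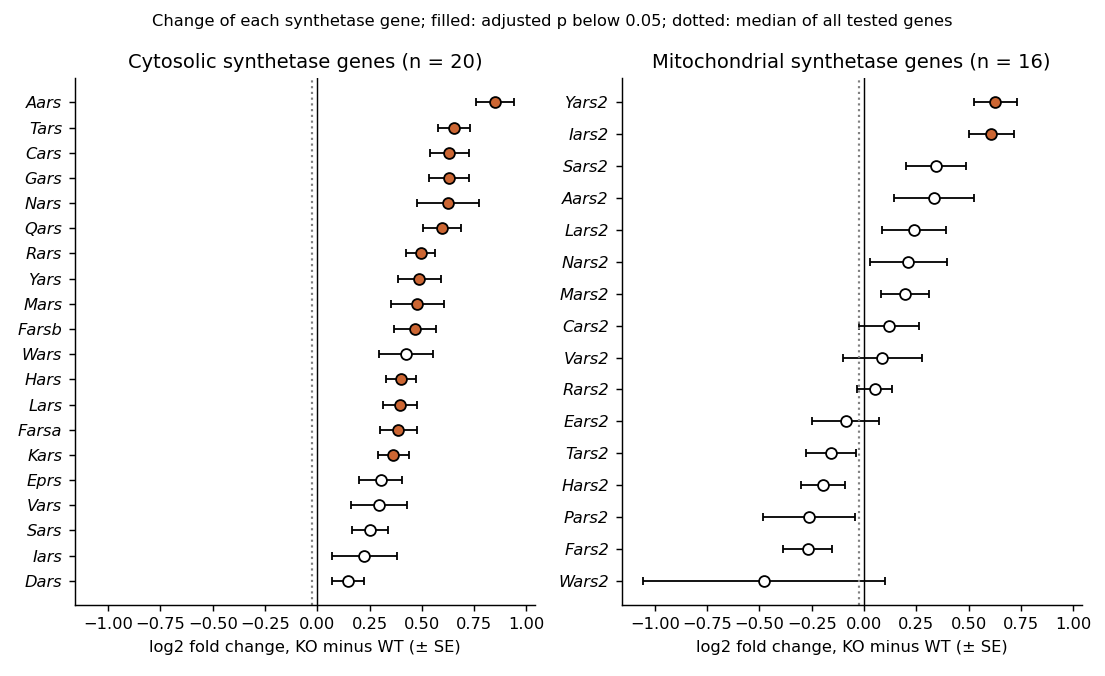
Log2 fold change of each synthetase gene (x axis, KO minus WT, on the log2(normalised reads + 1) scale, bars ± SE, 3 libraries per group), cytosolic genes left and mitochondrial genes right, filled where the adjusted p was below 0.05. All 20 cytosolic genes lie above 0 (Dars at −0.10 with quantile normalization), whereas the mitochondrial genes lie on both sides, 10 above and 6 below.

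Aars, the alanyl enzyme (ENSMUSG00000031960.14, GRCm38 chromosome 8, 111033144 to 111057664), had 4699.8, 5392 and 5677 normalised reads in WT and 9261, 9559.6 and 9501 in KO. The groups were far apart, and the log2 fold change of 0.85 ± 0.09 (SE, adjusted p = 0.00138, limma) was the largest of the 36. The annotated exons of Aars share 1326 bases, 14.3% of their length, with Exosc6 on the same strand, so some of these reads may belong to that exosome gene. Exosc6 itself rose from 2308, 2499 and 2947 to 3618, 3286 and 3432 normalised reads, by 0.42 on the log2 scale.

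Tars, the threonyl enzyme (ENSMUSG00000022241.5, chromosome 15, 11383663 to 11399658), had 7777, 8404 and 8324 normalised reads in WT and 12429, 13246 and 12876 in KO (log2 fold change 0.65 ± 0.08 SE, adjusted p = 0.00159). Cars, the cysteinyl enzyme (ENSMUSG00000010755.17, chromosome 7, 143557230 to 143600090), had 3101, 3366 and 3398 in WT and 4795, 5488 and 5019 in KO, a rise to 155% of the WT mean. Gars, the glycyl enzyme of both compartments (ENSMUSG00000029777.10, chromosome 6, 55038007 to 55079500), had 8466, 10559 and 9703 in WT and 14259, 15064 and 14956 in KO. In each of these genes the lowest KO library exceeded the highest WT library by more than the range within either group.

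Rars, the arginyl enzyme (ENSMUSG00000018848.4, chromosome 11, 35808381 to 35834506), had 7942, 8431 and 8037 normalised reads in WT, and its KO values of 11464, 11424 and 11477 were the most alike of all members, with an SD of 27.4. Qars, the glutaminyl enzyme (ENSMUSG00000032604.16, chromosome 9, 108507706 to 108515941), had the lowest WT mean of the cytosolic genes, with 2245, 2302 and 2325 in WT and 3733, 3397 and 3276 in KO. Their log2 fold changes were 0.49 ± 0.07 and 0.60 ± 0.09 (SE). Aars, Tars, Rars, Cars, Gars and Qars were called in the fit reported here and in all 17 alternatives, as were 2 mitochondrial genes described below.

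**Figure D2:**
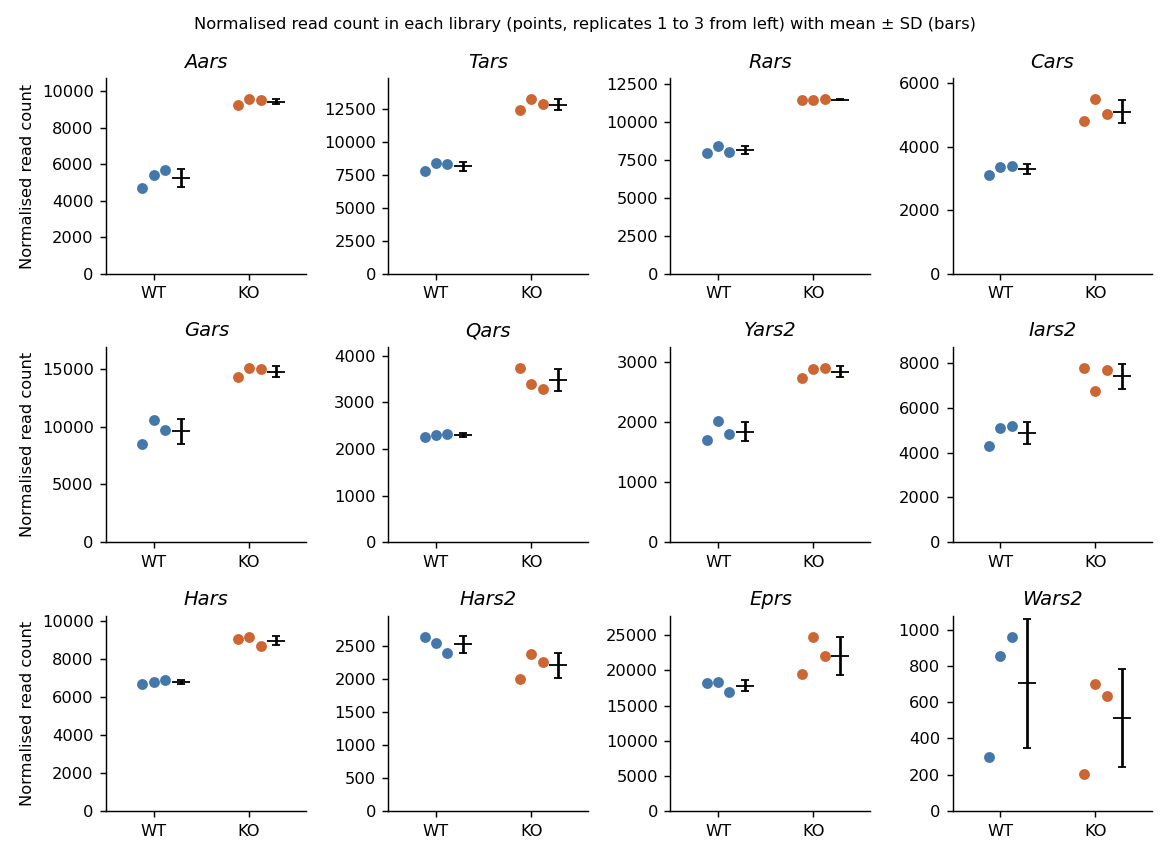
Normalised read count of 12 synthetase genes in each library (y axis from 0, points are replicates 1 to 3 from the left in WT and KO, bars are mean ± SD, n = 3). The 8 genes with the smallest p come first and show no overlap between groups, and Hars, Hars2, Eprs and Wars2 follow, of which only Wars2 overlaps.

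A further 8 cytosolic genes were called, each losing its call in at least 1 alternative. Hars and Kars, for histidine and lysine, rose to 131.9% and 128.7% of the WT mean, and Lars, for leucine, to 131.5%. Hars lost its call only without the intensity trend (adjusted p = 0.0594, limma). Yars, for tyrosine, rose to 140.9%, and Mars, for methionine, to 140.0%. Nars, for asparagine, had 18110.1, 15443 and 19170.5 normalised reads in WT and 22168, 32628 and 27171 in KO, a rise of 0.62 ± 0.15 (SE). Its KO values spread widely, and Nars and Mars passed in 11 and 10 of the 17 alternatives. Without KO replicate 3, Kars, Lars, Mars, Nars, Yars, Farsa and Farsb lost their calls, with adjusted p-values from 0.0528 to 0.0943.

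Farsa and Farsb encode the alpha and beta subunits of the cytosolic phenylalanyl enzyme, which is built from both. Farsa had 7484, 8987 and 8452 normalised reads in WT and 10759, 10970.3 and 10775 in KO. Farsb had 6546, 7398 and 7169 in WT and 8779, 10650.1 and 9812 in KO. The subunits rose by similar amounts, 0.39 ± 0.09 and 0.47 ± 0.10 (SE) on the log2 scale. Fars2, the single-chain mitochondrial counterpart, had 1879, 1795 and 2065 in WT and 1466, 1768 and 1532 in KO, a log2 difference of −0.27 (limma, adjusted p = 0.142, not called). Its groups did not overlap, with KO the lower one.

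The 6 cytosolic genes that were not called also had KO means above WT. Wars, for tryptophan and known as an interferon-inducible gene, came closest, with 2565, 3076 and 3189.6 normalised reads in WT and 3428, 4416 and 4024 in KO (a log2 difference of 0.43, limma adjusted p = 0.0512), and it passed in 7 of 17 alternatives. Eprs had 18273, 18303 and 16919.5 in WT and 19478, 24812 and 21991 in KO, a log2 difference of 0.30 ± 0.10 (SE, adjusted p = 0.0674). Sars, for serine, differed by 0.25 and Vars, for valine, by 0.29, and neither passed in any alternative. Dars, for aspartate, had 21232, 22487 and 21583 in WT and 22409, 24729 and 25215 in KO, overlapping by 1 library. Iars, for isoleucine, overlapped more, with 13052, 11154 and 10312 in WT and 11016, 16498 and 13201 in KO (adjusted p = 0.353). For Wars, Eprs, Sars, Vars and Iars the 95% interval of the log2 fold change reached the cytosolic median of 0.45, and for Dars it ended at 0.33.

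The mitochondrial log2 fold changes lay on both sides of 0, with 10 above, 6 below and a median of 0.10. That median was 0.051 without WT replicate 1, 0.066 without WT replicate 2 and 0.057 without KO replicate 2. Yars2, the mitochondrial tyrosyl enzyme (ENSMUSG00000022792.16, chromosome 16, 16302965 to 16309640), had 1705, 2015 and 1804 normalised reads in WT and 2740.4, 2881 and 2903 in KO (0.63 ± 0.10 SE, adjusted p = 0.00492, limma). Iars2, the mitochondrial isoleucyl enzyme (ENSMUSG00000026618.11, chromosome 1, 185284726 to 185329396), had 4303, 5118 and 5202 in WT and 7784, 6772 and 7704 in KO (0.61 ± 0.11 SE, adjusted p = 0.00663). These 2 calls stand against 10.3% of all tested genes, and against 14.6% of the 7469 tested genes within the level range of the mitochondrial members. The count is near both shares and is no result about the class. The exons of Iars2 share 2034 bases, 22.9% of their length, with Rab3gap2 on the opposite strand. Rab3gap2 had 6557, 6188 and 6497 in WT and 6564, 8116 and 7419.5 in KO, a log2 difference of 0.19 (adjusted p = 0.196, not called).

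Of the other 14 mitochondrial genes, Sars2 had the highest log2 difference, with 1143, 1469 and 1616 normalised reads in WT and 1705, 1826 and 1778 in KO (log2 difference 0.34, adjusted p = 0.131). Tars2 (−0.16), Rars2 (0.051), Cars2 (0.12), Mars2 (0.20), Nars2 (0.21), Lars2 (0.24) and Aars2 (0.33) had overlapping groups, as had the weakly read Ears2 (−0.088), Pars2 (−0.26) and Vars2 (0.087). Wars2 was the most variable member, with 298, 855 and 961 in WT and 203, 700.4 and 636 in KO, where replicate 1 was the low library of both groups. Mitochondrial genes were read less deeply, and their median SE was 0.14 against 0.09 for cytosolic genes. A missed call therefore does not show that a gene did not differ: for 8 of the 14 the 95% interval reached the cytosolic median of 0.45. For the other 6, Rars2, Tars2, Fars2, Hars2, Ears2 and Pars2, it ended below that value. With total read scaling the mitochondrial median turned to −0.040, Cars2, Rars2 and Vars2 turned below 0, and Fars2 (−0.41, adjusted p = 0.0393) and Hars2 (−0.34, adjusted p = 0.0492) were called lower.

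Ratios within a library do not depend on the size factor of that library. The 20 cytosolic genes together held 0.397%, 0.400% and 0.405% of all reads in WT and 0.456%, 0.523% and 0.483% in KO. The mitochondrial genes held 0.0663%, 0.0709% and 0.0709% in WT and 0.0674%, 0.0729% and 0.0707% in KO. The cytosolic share thus did not overlap between groups and the mitochondrial share did. The ratio of the class sums was 5.99, 5.65 and 5.71 in WT and 6.78, 7.18 and 6.83 in KO. No test was made over the members as a group.

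For 16 pairs of a cytosolic and a mitochondrial gene of one amino acid, with Eprs used for both glutamate and proline, the ratio was on average higher in KO in 13 and lower in 3. In 9 pairs every KO ratio lay above every WT ratio, and in 0 pairs every KO ratio lay below. The share of other gene pairs that separate in this way was not computed, so the count has no baseline. Of single genes, 19.1% of all tested lay wholly higher in KO. In the level range of the cytosolic genes 1537 of 3785 did, and in the mitochondrial range 1887 of 7469. Tars to Tars2 moved most among the 9 pairs, from 1.61, 1.56 and 1.75 in WT to 3.23, 2.60 and 2.84 in KO. Farsa to Fars2 followed, with 3.98, 5.01 and 4.09 in WT and 7.34, 6.20 and 7.03 in KO. The 3 pairs with a lower mean ratio in KO were Sars, Yars and Iars with their counterparts, and all 3 overlapped. For Yars and Yars2, which both rose, the ratio was 3.17, 2.56 and 2.83 in WT and 2.38, 2.88 and 2.50 in KO. For Iars and Iars2 it was 3.03, 2.18 and 1.98 in WT and 1.42, 2.44 and 1.71 in KO.

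**Figure D3:**
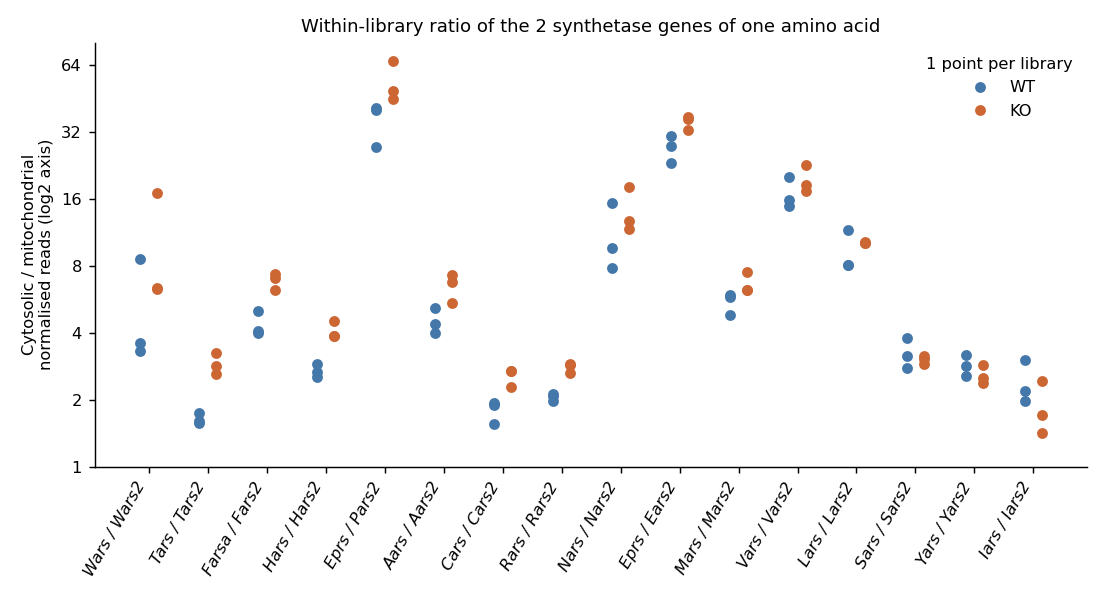
Ratio of normalised reads of the cytosolic to the mitochondrial gene of one amino acid (y axis, log2 scale) in each of the 6 libraries, for 16 pairs ordered by the difference between groups. KO points lie above all WT points in 9 pairs, among them Tars, Farsa, Hars, Aars, Cars and Rars with their counterparts, and the last 3 pairs run the other way with overlap.

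Hars and Hars2 are neighbours that run head to head on chromosome 18: Hars (ENSMUSG00000001380.6) spans 36766530 to 36783205 on the minus strand and Hars2 (ENSMUSG00000019143.15) spans 36783008 to 36792562 on the plus strand. Hars had 6699, 6799 and 6907 normalised reads in WT and 9064, 9175.5 and 8683 in KO (log2 fold change 0.40 ± 0.07 SE, adjusted p = 0.00766, limma). Hars2 had 2639.96, 2547 and 2388 in WT and 2002, 2373 and 2255 in KO (−0.19 ± 0.10 SE, adjusted p = 0.230). One gene of the pair rose and the other did not pass, with a lower KO mean, and in neither did the groups overlap. The ratio of Hars to Hars2 was 2.54, 2.67 and 2.89 in WT and 4.53, 3.87 and 3.85 in KO. Their exons share 195 bases on opposite strands, 7.97% of the Hars exons, and reads there cannot be told apart without strand.

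Levels of different genes were compared per length, as normalised reads per kilobase of the longest principal transcript in GENCODE M21. In WT, Dars was highest at 10008 per kilobase, followed by Nars at 6402 and Kars at 5746. Rars2 at 2116 and Tars2 at 2077 were the highest mitochondrial genes, and 13 of the 20 cytosolic genes lay above both. Qars (818), Aars (914) and Cars (1021) were the lowest cytosolic genes on this scale, and all 3 rose. Mars2 (139.6), Wars2 (159.9) and Vars2 (160.1) were lowest of all on this scale. The class medians in WT were 2899 and 603 per kilobase. With the length of all annotated exons in place of that transcript, 12 cytosolic genes lay above the highest mitochondrial one. The lowest were then Lars2 (93.7), Wars2 (118.6) and Ears2 (129.3).

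Within the KO group, replicate 2 was the highest library in 15 of the 20 cytosolic genes and replicate 1 the lowest in 15. Among the 20136 tested genes they were highest in 7645 and lowest in 8501. The mitochondrial genes had the same libraries at the ends in 11 of 16 each. The summed cytosolic reads were 225179 in KO replicate 1, 262209 in replicate 2 and 244722 in replicate 3. The summed stem cell markers, mostly Cd34 and Kit, had the same order, 30971, 48978 and 40535. Of that list Hlf, Procr and Ly6a had another order. The granulocyte-monocyte progenitor sum, mostly Mpo, was 2101981, 1894314 and 2106378, and the part of either sum in the spread was not tested. Iars, Nars and Mars had the widest KO spread of the cytosolic genes relative to their means. In WT, replicate 1 was the lowest library in 15 of the 20 cytosolic genes, in 9 of the 16 mitochondrial genes and in 38.4% of all tested genes.

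Called genes were found in both enzyme classes and both inside and outside the multi-synthetase complex. Of 10 class I genes 6 were called higher, with a median log2 fold change of 0.45, and of 10 class II genes 8, with a median of 0.43. Of the 8 enzymes of the complex 5 were called (median 0.38), and of the 12 others 9 (median 0.48). Without KO replicate 3 these counts fell to 3 in class I, 4 in class II, 2 in the complex and 5 outside it. The complex also holds noncatalytic scaffolds. Aimp1, one of these, rose from 1499.5, 1809 and 1737 to 2552, 2294 and 2714 normalised reads (0.58 on the log2 scale), and Eef1e1 rose by 0.44. Aimp2 had 4596, 5161 and 5191 in WT and 6595, 5755 and 5911 in KO (0.29, limma adjusted p = 0.0633, not called). The scaffold list thus had 2 of 3 members called, beside 10.3% of all tested genes called higher.

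Cytosolic synthetase genes known from other cells as ATF4 targets, and the rest, both held called genes. Of 12 such genes, listed from general knowledge, 8 were called higher (median 0.48), and of the 8 other cytosolic genes 6 (median 0.39), which became 4 and 3 without KO replicate 3. Atf4 itself rose from 7247, 8499 and 7328 to 10469, 14192 and 12906 normalised reads (0.70 ± 0.13 SE, adjusted p = 0.00782, limma). Asns, asparagine synthetase and a standard ATF4 target, rose from 2443, 3386 and 3022 to 6371, 5042 and 5347 (0.93). Eif2ak4, the gene of GCN2, differed by 0.22 and did not pass (adjusted p = 0.382). Of 34 genes of the ATF4 arm 13 rose and 2 fell, with a median of 0.34. Beside these stand 10.3% of all tested genes called higher in KO and 13.0% called lower. Those that rose included Chac1 (2.68), a glutathione-degrading enzyme, Mthfd2 (1.42), of mitochondrial folate metabolism, and Slc7a5 (0.90), an amino acid transporter. Those that fell were Ppp1r15a (−0.81), a phosphatase subunit that acts on eIF2, and Trib3 (−1.30), a pseudokinase.

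Promoter sequence was compared where it could be matched. RefSeq promoters (GRCm38.p6, from 250 bases before to 50 bases after the start) were found for 27 members, 13 cytosolic and 14 mitochondrial, 1 of them under the symbol Mars1. Cars, Hars, Hars2, Lars, Nars, Pars2, Rars, Vars and Wars were not matched. The letters TGATGNAA, the core of the C/EBP-ATF response element that ATF4 binds, were searched on both strands, with N as any base. They occurred for 5 of the 13 cytosolic and 0 of the 14 mitochondrial genes, counted by gene with any of its promoters. Of all 32851 promoters in the table, counted 1 by 1 and not by gene, 3.97% held them, so the units differ. The 5 genes were Aars, Tars, Gars, Yars and Iars, and 4 were called while Iars was not. All are in the ATF4 list, as were 8 of the 13 cytosolic genes with a promoter, while 5 were not. Among the cytosolic genes whose promoters lacked these letters, Farsa, Farsb, Kars, Mars and Qars were called too. Dars, Eprs and Sars also lacked them and were not called. The windows below run from 130 bases before to 20 bases after the start, 5′ to 3′ on the strand of the gene, and are shown because they hold every match among the members, with the matched letters in capitals.
Aars, chr8:111033712-111033861, plus strand: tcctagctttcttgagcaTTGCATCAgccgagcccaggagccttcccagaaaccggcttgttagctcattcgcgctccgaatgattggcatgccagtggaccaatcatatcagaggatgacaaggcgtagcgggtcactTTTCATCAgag
Tars, chr15:11399639-11399788, minus strand: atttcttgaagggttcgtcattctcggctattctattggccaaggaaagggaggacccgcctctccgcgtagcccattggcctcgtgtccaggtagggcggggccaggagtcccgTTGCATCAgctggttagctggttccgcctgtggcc
Gars, chr6:55037871-55038020, plus strand: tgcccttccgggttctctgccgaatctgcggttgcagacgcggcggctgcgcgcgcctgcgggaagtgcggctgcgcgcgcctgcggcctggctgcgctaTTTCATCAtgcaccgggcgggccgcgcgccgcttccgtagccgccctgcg
Yars, chr4:129189773-129189922, plus strand: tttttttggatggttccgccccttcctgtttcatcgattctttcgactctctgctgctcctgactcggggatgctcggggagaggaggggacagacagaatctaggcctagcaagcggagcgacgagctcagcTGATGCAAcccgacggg
Iars, chr13:49682000-49682149, plus strand: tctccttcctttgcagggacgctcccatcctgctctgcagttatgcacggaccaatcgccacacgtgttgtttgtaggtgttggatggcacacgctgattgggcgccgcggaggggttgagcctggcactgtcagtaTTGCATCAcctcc

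In Aars a match lies at −112 to −105 and another at 10 to 17 relative to the start, in Tars at −15 to −8 and in Gars at −30 to −23. In Yars it lies at 4 to 11 and in Iars at 8 to 15, after the annotated start. The E-box CACGTG reads the same on both strands and is bound by MYC and related factors. It occurred for 4 cytosolic genes (Aars, Tars, Iars and Farsb) and 1 mitochondrial gene (Ears2), and does not overlap the other matches. Among all promoters, again counted 1 by 1 and not by gene, 7.15% held it. A match is a description of letters and was not tested as a binding site. Of 4 genes of the MYC network, 3 fell and 0 rose, beside 13.0% of all tested genes called lower and 10.3% called higher. Myc had 11198, 13329.99 and 14591 normalised reads in WT and 10039, 9130.3 and 8985 in KO (−0.47, adjusted p = 0.0208, limma), and Mycn fell from 2670.4, 2154 and 3038 to 259, 421 and 265. Mycl, the least read of these, had 55.0, 76.1 and 53.0 in WT and 0, 11.8 and 0 in KO.

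Genes that use or support charged tRNA were called in part. Of 6 genes, those of the cytosolic elongation factors and the kinase gene Eef2k, 4 rose. Beside these stand 10.3% of all tested genes called higher, and 26.9% of those in the level range of the cytosolic synthetases. The 4 were Eef1g (0.47) and Eef1d (0.54), subunits of the exchange factor of elongation factor 1, Eef1b2 (0.28), and Eef2 (0.47), the translocation factor. Eef1a1, which carries charged tRNA to the ribosome, had 60121, 66545 and 69956 normalised reads in WT and 60819, 68993 and 68074 in KO, with overlapping groups. Eef2k, which is not itself a factor, was the only gene of the list below 0 (−0.35, limma adjusted p = 0.300, not called). Of 10 mitochondrial partners 2 rose, a count near the 10.3% of all tested genes and the 14.6% in the level range of the mitochondrial synthetases, and no result about the list. Gfm1, a mitochondrial elongation factor, rose from 3091, 3286 and 3115 to 6749, 5877 and 6092 (0.98 ± 0.09 SE, adjusted p = 0.000794, limma), more than any synthetase gene, and Tsfm, another, rose by 0.61. Qrsl1, Gatb and Gatc, subunits of the amidotransferase that makes mitochondrial glutaminyl-tRNA, differed by 0.33, −0.11 and −0.054, none of them called.

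Other genes of tRNA charging and editing, 10 in all, held 0 calls in either direction, with a median of 0.01. Of all tested genes, 23.3% were called in either direction. Of 22 genes of RNA polymerase III and its factors, which transcribe the tRNAs themselves, 3 rose and 2 fell, near the 10.3% and 13.0% of all tested genes, so these counts are no result about the list. Among those that rose were the polymerase subunit genes Polr3f (0.53) and Polr3a (0.34), and those that fell were Polr3gl (−0.64), also a subunit, and the initiation factor Brf1 (−0.35).

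**Figure D4:**
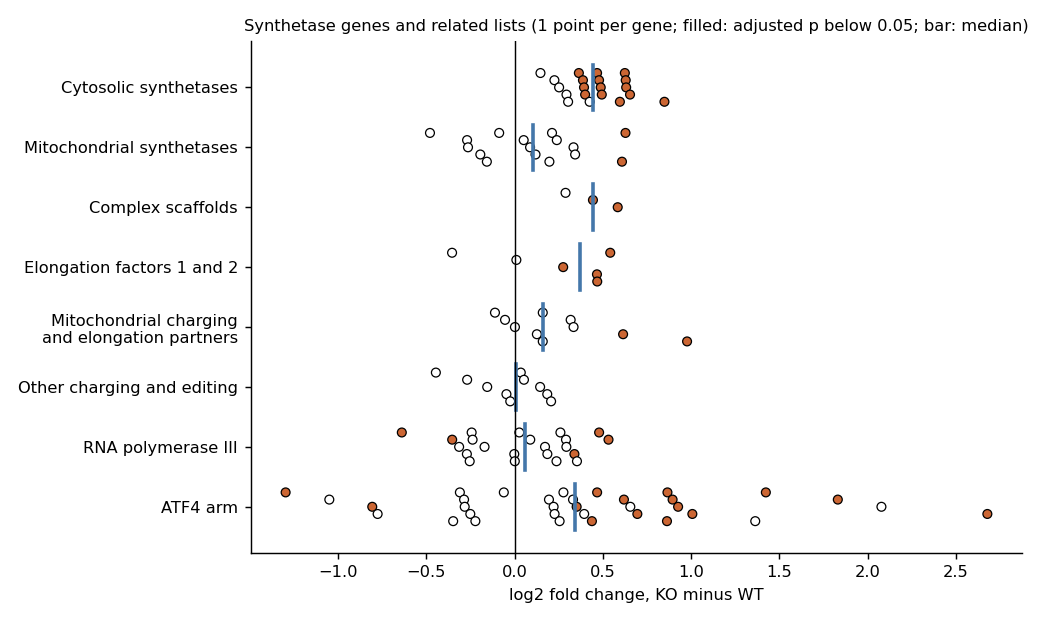
Log2 fold change (x axis, KO minus WT) of every tested gene in the 2 synthetase classes and 6 related lists (rows), 1 point per gene, filled where the adjusted p was below 0.05, with a bar at the median. Medians were 0.45 for cytosolic and 0.10 for mitochondrial synthetases and 0.44 for the complex scaffolds. They were 0.37 for the elongation factors, a row that includes the kinase gene Eef2k, and 0.01 for other charging and editing genes.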

How the data were processed

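Messenger RNA of 3 WT and 3 KO libraries was sequenced, grouped by the sample titles. The files the authors deposited give 1 signal value for each gene, called only expression per the file headers; HISAT2, StringTie, mm8 and mm10 are named without roles in the submitters' processing notes. All values (100%) were whole multiples of the smallest step of their library, to a tolerance of 0.01 read, so the values are read counts divided by 1 size factor per library, and the reads were recovered. Counting, strand and multi-mapping are not given in the sources used here. Of the identifiers, 49035 have the same version in GENCODE M21, and all 49035 have the same coordinates there, hence GRCm38.

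limma 3.58.1 (R 4.3.3, intensity trend) was fitted to log2(value + 1) of genes that reached 1 in 3 or more libraries, with two-sided p-values adjusted by Benjamini-Hochberg over 20136 genes. edgeR 4.0.16 (4571 genes called) and DESeq2 1.42.0 on recovered reads were alternatives, with other scalings, filters and variance models, a replicate block and each library left out. The code was tested on simulated data. Members, lists and tests were chosen with earlier results of these data known, and the class lists, the ATF4 list and the pairs come from general knowledge. Per-library values were given for the 8 members with the smallest p, for Hars, Hars2 and Eprs and, chosen after their values were seen, for other members described singly. From other lists, called genes of lists of up to 11 were named, with Atf4, Asns, Eif2ak4, Myc, Mycn and Ppp2ca whatever their p. Markers were given by counts and summed levels, with Ebf1, which is at 0. Nkg7, Cd34, Kit, Mpo, Hlf, Procr and Ly6a were named after their values were seen. Other related genes were named after their values were seen. Levels per kilobase used the longest transcript tagged principal by APPRIS. Transcripts were compared with BLAST 2.17.0: Iars has a processed pseudogene, Gm4849, 96.0% identical over 1656 bases, with at most 3.22 normalised reads. No pair of libraries within a group agreed within sampling noise (chi-square per degree of freedom 37.98 to 80.5).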

Additional observations from a re-analysis of the deposited data

How the results depend on the processing

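Over 17 alternatives, 558 of the comparisons of a single gene with its reported result kept direction and call, 30 lost the call, 13 gained it and 11 turned sign, all 11 in genes that were not called. The cytosolic count of 14 was 9 with total read scaling and 9 with quantile normalization, with medians of 0.30 and 0.31, and 6 without the intensity trend; it ranged from 7 to 16 when single libraries were left out, 7 being without KO replicate 3. These scalings moved the median of all genes by −0.13 and 0.10. Relative to that median, the cytosolic median was 0.46 with total read scaling, 0.24 with quantile normalization and 0.47 as reported, and the mitochondrial one 0.12, 0.090 and 0.13. The cause of the other changes was not tested. With total read scaling the mitochondrial median turned to −0.040 and 2 mitochondrial genes were lower; with library quality weights 1 was, Fars2. Mitochondrial genes called higher numbered 2 in every alternative, and cytosolic genes called lower 0.

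Of all tested genes, 2069 were higher in KO and 2622 lower. Total read scaling gave 1334 and 3511, the fit without the intensity trend 1071 and 1750, and library quality weights 3198 and 3630. Leaving out single libraries gave 993 to 1787 higher, with 993 without KO replicate 3, and 1565 to 2604 lower, with 1565, 1639, 1602 and 1714 without WT replicates 1, 2 and 3 and KO replicate 3.

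Signs turned for Dars (−0.10), Ears2 (0.11) and Rars2 (−0.0065) with quantile normalization, for Cars2 (−0.025), Rars2 (−0.092) and Vars2 (−0.056) with total read scaling, and for Vars2 (−0.032) with library quality weights. Without single libraries they turned for Vars2 without WT replicate 1 or KO replicate 2 (range −0.023 to 0.25), Ears2 without WT replicate 2 (−0.16 to 0.044) and Wars2 without KO replicate 1 (−1.01 to 0.092). With the replicate number as a block 15 cytosolic and 2 mitochondrial genes were higher and 0 lower, and 1705 of all genes were higher and 2157 lower. Wars (adjusted p = 0.0328, limma) was then called too. Deviations of same-numbered libraries from their group means correlated at −0.023, −0.011 and −0.021, which did not show a pairing by number. With means of only 3 libraries these values cannot exclude one. The lowest read number of any member in a library was 189, in Wars2. Leaving out single libraries moved the mitochondrial median between 0.051 and 0.15, Nars2 between 0.0030 and 0.33, Cars2 between 0.036 and 0.24 and Lars2 between 0.093 and 0.31. Without the intensity trend 3 class I, 3 class II, 2 complex, 4 other, 4 ATF4-list and 2 remaining genes were called, and with total read scaling or quantile normalization 4, 5, 2, 7, 5 and 4.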
